A study of Zea mays with 217 samples.

Results

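The 150 genes described here are maize genes that both DOF17 (gene Zm00001d051439) and DOF30 (gene Zm00001d028625) list as targets and that few other transcription factors (TFs) list. They make up 150 of 20067 target genes in the network. They were chosen by the listings themselves, since a gene had to be listed by both TFs and the genes with the fewest other TFs were taken, so these listings are described and not tested. The network came from 217 ChIP-seq libraries of 104 TFs, with 2 libraries each for DOF17, DOF30 and the other DOF TFs in the set, DOF21 and DOF22. In each group leaf protoplasts of the cultivar B73, from seedlings aged 1 to 2 weeks, were transformed with PEG to express 1 TF with an Avi tag. A biotin ligase expressed with it biotinylated the tag, and streptavidin beads pulled down the TF with its DNA. All groups shared this treatment. The TF was thus expressed from a plasmid and not from its own gene, and in mesophyll cells without their walls. The authors scored genes with TIP, in which peaks count more where, relative to gene starts, the TF usually binds. A listed gene is one with a deposited p-value from this model. The authors state a false discovery rate of 5% as the limit for a target. The deposited p-values run up to 0.05, and whether they are adjusted was not established. How many of the sparse listings are true targets was thus not tested. The table has 1 list for each TF over its replicates, so no value below has a replicate error, and it gives no read depth. It holds no expression values either, so the tissue could not be checked against marker genes.

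DOF proteins are plant TFs with a zinc finger that binds DNA at sites with the short core AAAG. In maize and other cereals, members of the family are known for the control of storage protein genes in the endosperm and of genes of carbon metabolism, and in Arabidopsis several act in the development of the vascular tissue. Because the core is short and common, and because family members have very similar DNA-binding domains, several DOF proteins can recognise the same sites.

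The gene-specific parts of the cloning primers of the pair are shown, 5′ to 3′, because they mark which coding sequences were expressed as tagged TFs. The capitals are the start codon, and the reverse primers read the opposite strand.
DOF17 forward: ATGgatgcggcgcagtggca
DOF17 reverse: ccaagggcctccaccaccat
DOF30 forward: ATGgtcttcccttcaccttca
DOF30 reverse: cgacaagccactgtcattgca
Promoter sequences of the 150 genes were not used here, and the reference gene table matched 0 of the 150 identifiers, so the genes are given by identifier only.

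DOF17 listed 2912 target genes, which is 14.5% of all target genes, and DOF30 listed 2997, which is 14.9%. They shared 1943 targets, or 66.7% of the DOF17 targets and 64.8% of the DOF30 targets. Leaving out 21 genes of profiled TFs gave 1922 shared targets. Most of these were also listed by many other TFs, with a median of 18 other TFs, quartiles of 5 and 43, and a highest value of 97. At the low end, 53 shared targets had no other TF, 135 had 1, 95 had 2 and 94 had 3. The 150 genes are all 53 with no other TF and 97 of the 135 with 1, the latter taken in order of the product of the DOF17 and DOF30 p-values. The last gene inside was Zm00001d039847, with a product of 0.0002633, and the first outside were Zm00001d022200, also 0.0002633 at this precision, and Zm00001d043291, with 0.0002982. The cut thus falls between genes with close products, and 188 shared targets in all had at most 1 other TF.

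Among the other TFs, DOF22 stood far above the rest. It listed 71 of the 150 genes (47.3%), while it listed 15.2% of all target genes. Its share was higher among all 1922 shared targets of the pair, of which it listed 1438 (74.8%), so the set has a smaller share of DOF22 targets than the genes it was drawn from. Since the rule left room for at most 1 other TF, the closer reading is within the 97 genes that had 1, and in 71 of these (73.2%) that TF was DOF22. The share was lower in the 38 shared targets with 1 other TF that fell outside the cut, where DOF22 was that TF in 16 (42.1%). Over all 135 genes it was 87 (64.4%). The share of DOF22 grew with the listing by the pair. Where neither DOF17 nor DOF30 listed a gene and just 1 of the other TFs did, it was DOF22 in 154 of 4300 genes (3.58%). Where DOF17 alone of the pair listed the gene it was DOF22 in 43 genes (42.2% of such genes), and where DOF30 alone did, in 45 genes (43.3%).

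DOF21, the remaining DOF TF, listed 0 of the 150 genes, and it was the other TF in 0 of all 135 shared targets with 1 other TF. Among the 4506 genes with 1 other TF that were not listed by both DOF17 and DOF30, DOF21 was that TF in 0.533%. These counts of 0 therefore say little about DOF21. It had a shorter list than the other DOF TFs, with 1603 targets or 7.99% of all target genes. The rule took genes with few TFs, and the targets of DOF21 mostly had many. A DOF21 target had a median of 43 TFs with quartiles of 21 and 67, and 57 of 1582 (3.6%) had at most 3, when genes of profiled TFs were left out. For DOF17 the median was 16 with 459 of 2886 targets (15.9%) at 3 TFs or fewer, for DOF30 it was 16 with 437 of 2967 (14.7%), and for DOF22 it was 15 with 525 of 3026 (17.3%). Across the 104 TFs these medians ran from 5 to 74, and the median of the medians was 39, so DOF17, DOF30 and DOF22 lie near the lower end and DOF21 above the middle. DOF21 also had lower p-values than the others. The median p of its targets was 0.000569, against 0.0107 for DOF17, 0.0107 for DOF30 and 0.0132 for DOF22. TIP was run for each TF with its own profile, so these medians do not compare strengths of binding.

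The other 100 TFs together listed 26 of the 150 genes (17.3%), and the remaining 124 (82.7%) were listed by DOF TFs only. Of these 100 TFs, 18 listed a member of the set, and none listed more than 3. GLK53, a GARP-type TF, listed 3 genes and GRAS23, of the GRAS family, also 3, while they listed 15.6% and 8.72% of all target genes. The AP2/ERF factor EREB97, the zinc finger factor GATA12, the MYB-related MYBR17 and WRKY82, of a family that binds W-box elements, listed 2 each, against 13.6%, 7.05%, 14.5% and 15% of all target genes. Because the rule left room for at most 1 other TF, a nearer comparison is how often a TF was the 1 other TF in the 4506 genes with 1 that were not listed by both DOF17 and DOF30. This was GLK53 in 16.3% of them, EREB97 in 5.42%, GATA12 in 4.19%, GRAS23 in 2.53%, WRKY82 in 0.488% and MYBR17 in 0.444%, and DOF22 in 5.37%. The counts of 2 and 3 are too low to order the TFs. The other 12 TFs, each with 1 gene, were CCHH133, COL2, EREB71, GLK11, HAG7, MYBR87, NAC49, SIG6, TCP23, ZIM27, bHLH129 and bHLH145. The 18 TFs came from 14 families. None of the 9 MYB, 7 HB or 6 bZIP TFs listed a gene of the set. These TFs were also seldom the 1 other TF in the 4506 genes. The highest shares were 1.07% for MYB4, 1.2% for HB66 and 0.777% for bZIP40, so their absence says little. In all, 83 TFs listed none, and 72 of these had at least 2000 targets elsewhere, TCP10 and NAC23 with 3361 each and MYB38 with 3317 being the longest lists. These TFs were seldom the 1 other TF elsewhere, in 0.843%, 0.466% and 0.111% of the 4506 genes, so counts of 0 say little about them.

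The genes listed by DOF TFs and by no TF of another family numbered 592, and the plot of their sets of TFs shows where the 150 genes sit among them. DOF22 alone listed 154 of these, DOF17 alone 103 and DOF30 alone 82. The trio of DOF17, DOF30 and DOF22 had 87 genes, more than DOF30 alone, and 71 of them are in the set described. DOF17 with DOF30 had 53, DOF30 with DOF22 had 45 and DOF17 with DOF22 had 43. Sets with DOF21 were small. DOF21 alone had 20 genes, DOF30 with DOF21 had 3, DOF17 with DOF21 had 1, and 1 gene was listed by all 4 DOF TFs. That gene has 2 other TFs besides the pair and so lies outside the 150.

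**Figure D1:**
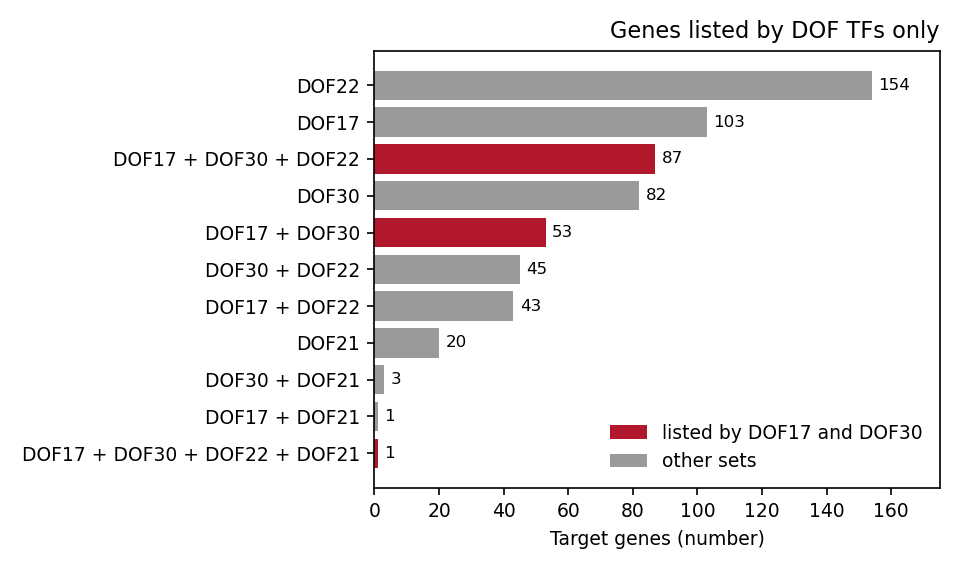
Number of genes (horizontal axis) listed by DOF TFs and by no other TF, for each set of DOF TFs (vertical axis). Red bars are sets that hold both DOF17 and DOF30, where the trio with DOF22 has 87 genes and the pair alone 53, and grey bars are all other sets.

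These sets were also large among all TFs. Of the 2356 genes listed by just 2 TFs, DOF17 with DOF30 was the most common pair with 53 genes (2.25%), followed by DOF22 with DOF30 (45) and DOF17 with DOF22 (43). The next was GLK25 with GLK53 (41), then EREB17 with EREB71 (35). In all, 1217 different pairs occurred. For the 1582 genes listed by just 3 TFs the gap was wider. The trio of DOF17, DOF22 and DOF30 accounted for 87 genes (5.5%), and the next trio, GLK11 with GLK25 and GLK53, for 8. In all, 1310 different trios occurred.

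When every pair of TFs was scored by its shared targets with at most 1 other TF, DOF17 with DOF30 was the highest of all pairs, with 188 genes. DOF22 with DOF30 followed with 164 and DOF17 with DOF22 with 155. The pairs EREB17 with EREB71 and GLK25 with GLK53 came next, with 74 each, and COL2 with COL8 had 71. The median pair had 0 such genes and 95.9% of pairs had at most 5. As a share of all targets that a pair shared, these genes were 9.78% for DOF17 with DOF30, 8.86% for DOF22 with DOF30 and for DOF17 with DOF22, 8.32% for GLK25 with GLK53 and 4.27% for EREB17 with EREB71. By share, GLK25 with GLK53 was thus close to the DOF pairs. GLK53 had similar shares with TFs of other families, 8.36% with EREB97 (26 genes) and 8.23% with GATA12 (20 genes). DOF21 had 3 such genes with DOF30, 1 with DOF17 and 0 with DOF22, out of 614, 611 and 569 shared targets. Because the pair of DOF17 and DOF30 was picked with these listings known, its place is a description.

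**Figure D2:**
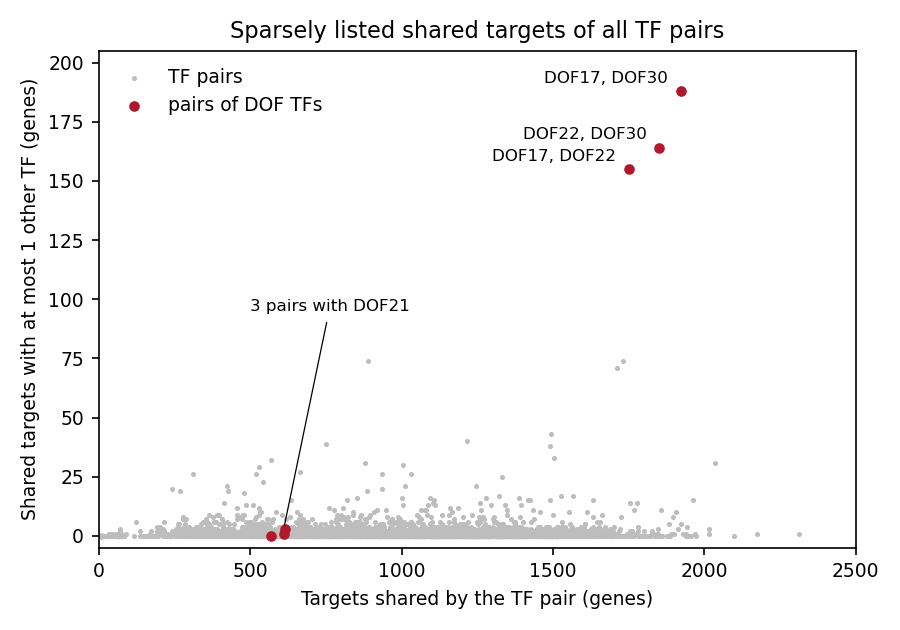
Each point is a pair of TFs, with all its shared targets on the horizontal axis and those listed by at most 1 other TF on the vertical axis (both in genes, profiled TF genes left out). The pairs among DOF17, DOF30 and DOF22 have 155 to 188 such genes, all other pairs have at most 74, and the pairs of DOF21 with the other DOF TFs have 0 to 3.

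Seen from each TF of the pair, the same partners came first. Among the DOF17 targets that had at most 1 TF besides DOF17 and the TF asked about, DOF30 listed 188 of 393 (47.8%), DOF22 listed 155 of 370 (41.9%) and GLK53, the third, 29 of 273 (10.6%). The median over the other TFs was 0.386%. For the sparsely listed DOF30 targets, DOF17 listed 188 of 374 (50.3%), DOF22 164 of 358 (45.8%) and GLK53 23 of 258 (8.91%), with a median of 0.417% over the TFs. DOF21 listed 0.388% of such DOF17 targets and 1.26% of such DOF30 targets. It was thus near the median TF for DOF17 and above it for DOF30, where the value rests on 3 genes of 239.

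The overlap of the pair was larger among genes with many TFs, but it was also present among those with few. Genes with many TFs are by definition listed by a large part of all TFs. The share of all genes in each group that DOF17 or DOF30 lists is not given here. The rise therefore does not show that the pair is closer among genes with many TFs. Genes were grouped by the number of non-DOF TFs that list them. Of the DOF17 targets with no non-DOF TF, DOF30 listed 141 of 288 (49%), and with 41 or more it listed 510 of 694 (73.5%). In the reverse direction DOF17 listed 52% and 72% of the DOF30 targets. DOF22 listed 88 of the 141 shared targets with no non-DOF TF (62.4%), 65 of 115 with 1 (56.5%) and 415 of 510 with 41 or more (81.4%). DOF21 listed 1 of the 141 (0.709%), 4 of the 115 (3.48%), 51 of 299 with 11 to 20 (17.1%), and 301 of the 510 with 41 or more (59%). The curve of DOF21 is therefore the steep one in the plot, while those of DOF22 and of the pair itself start high.

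**Figure D3:**
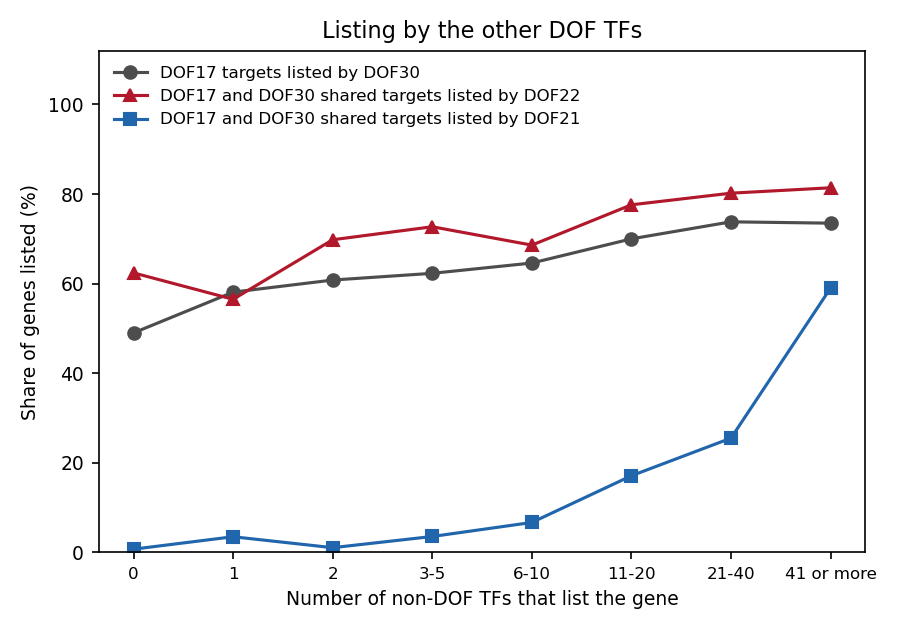
Share of genes listed (vertical axis, percent) by the number of non-DOF TFs that list the gene (horizontal axis). DOF30 lists 49 to 73.8% of the DOF17 targets and DOF22 56.5 to 81.4% of the shared targets over the groups, while DOF21 goes from 0.709 to 59% of the shared targets.

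The TIP p-values of the 150 genes spread over most of the list of each TF. Their medians lay between that of all its targets and that of the shared targets not chosen. For DOF17 they ran from 2.36e-12 to 0.0471 with a median of 0.00681, and 30 (20%) were at most 0.001. Over all DOF17 targets the median was 0.0107 with 20.4% at most 0.001, and over the 1772 shared targets not chosen it was 0.0057 with 28.4%. For DOF30 the 150 genes ran from 8.15e-09 to 0.0471 with a median of 0.00712 and 24 (16%) at most 0.001. All DOF30 targets had a median of 0.0107, and the shared targets not chosen had 0.00489 with 29.8%. Both p-values were at most 0.001 in 14 of the 150 genes, at least 1 of them in 40, and both were above 0.01 in 30. The p-values ordered the genes with 1 other TF in the rule, so the medians of the set depend on where it was ended.

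The genes with no other TF, which the p-values did not select, had the higher p-values. Their median was 0.0165 for DOF17 and 0.0185 for DOF30, with 2 and 5 of 53 genes at most 0.001. All 135 shared targets with 1 other TF, without the cut, had medians of 0.00737 and 0.00889. Shared targets with 2 other TFs had slightly higher medians than those with 1, 0.00882 and 0.00932, and those with 41 or more had the lowest, 0.00338 and 0.00298. Genes that DOF17 listed with no other TF at all had a median of 0.0253, and those of DOF30 alone 0.0286. With no other TF, a listing shared by the pair thus had a lower median p than a listing by DOF17 or DOF30 alone. The shares at most 0.001 went this way for DOF30 only. They were 3.77% shared against 4.85% alone for DOF17, and 9.43% against 2.44% for DOF30. Within the 97 genes with 1 other TF, the 71 listed by DOF22 had medians of 0.00353 and 0.005 for DOF17 and DOF30, and the 26 with another TF had 0.0042 and 0.00721. The ranges of these groups overlapped. In the 71 genes the DOF22 p-value ran from 1.37e-11 to 0.05 with a median of 0.00627, against 0.0132 over all DOF22 targets. The 1367 shared targets not chosen that DOF22 listed had nearly the same median, 0.00629. Of them 25.2% were at most 0.001, against 18.3% of the 71 genes. The lowest of the 3 p-values belonged to DOF17 in 32 of the 71 genes, to DOF30 in 24 and to DOF22 in 15. The rule favoured low p-values of DOF17 and DOF30 but not of DOF22, so these counts follow in part from the choice. They do not compare strengths of binding, since TIP was run for each TF with its own profile.

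Spearman's rho between the p-values of DOF17 and DOF30 was 0.50 over all 1922 shared targets. Over the 150 genes it was 0.31, but the rule ordered genes by the product of these p-values, and this value depends on that choice. The points are genes from the same pooled libraries and are not independent, so no p is given. DOF17 had the lower p in 85 genes and DOF30 in 65. The p-values lay within 10-fold of each other in 112 genes, with a median difference of 3.53-fold.

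**Figure D4:**
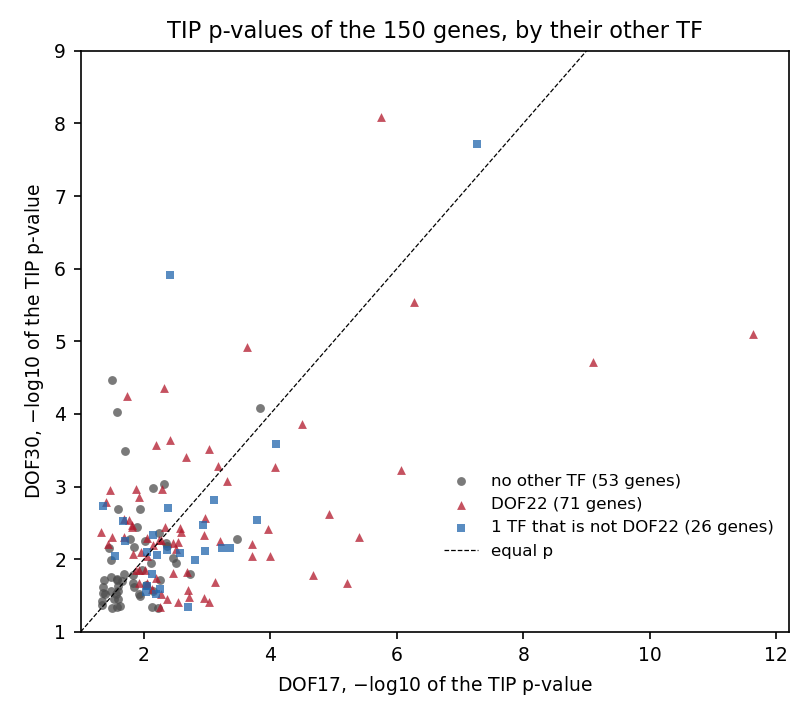
Each point is a gene of the set, with the −log10 of its TIP p-value for DOF17 (horizontal) and DOF30 (vertical), so that lower p-values lie farther from the origin. Grey circles are the 53 genes with no other TF, red triangles the 71 listed by DOF22, blue squares the 26 listed by another TF, and the dashed line marks equal p-values.

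The gene with the lowest product of both p-values was Zm00001d015334, with 2.36e-12 for DOF17, 7.9e-06 for DOF30 and 1.37e-11 for DOF22. It ranked 9th among the 2912 targets of DOF17 and 123rd among those of DOF30. No TF beyond these 3 listed it. Zm00001d018637 was the second, with 5.39e-08 for DOF17 and 1.93e-08 for DOF30, and its other TF was WRKY82. It ranked 45th for DOF17 and 29th for DOF30. Zm00001d002396 (1.79e-06 for DOF17, 8.15e-09 for DOF30), Zm00001d015664 (8.03e-10 and 1.91e-05) and Zm00001d038098 (5.42e-07 and 2.91e-06) followed, and all of them were listed by DOF22, with p-values of 0.000925, 6.87e-05 and 2e-05. Of these 5 genes 4 thus belong to the trio with DOF22.

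Among the genes with no other TF, Zm00001d018638 had the lowest product, with 0.000145 for DOF17 and 8.33e-05 for DOF30. It was followed by Zm00001d023869, with 0.032 and 3.42e-05. The latter stood far apart in the lists, since it ranked 190th for DOF30 and 2323rd for DOF17. Zm00001d024567, whose other TF was GRAS23, was farther apart still, with 0.00384 for DOF17 and 1.23e-06 for DOF30. In the other direction the largest gaps were those of Zm00001d015334 and Zm00001d015664, both with the lower p for DOF17. Close to the limit of the set, Zm00001d010222, listed also by bHLH145, had 0.0092 and 0.0283, and Zm00001d039847, listed also by HAG7, had 0.0287 and 0.00917. Zm00001d010222 ranked 1365th for DOF17 and 2263rd for DOF30, and Zm00001d039847 2208th and 1407th.

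Some of the 150 genes had consecutive identifiers. There were 10 such pairs with 20 genes, among them Zm00001d018637 and Zm00001d018638 named above. In 5 of the pairs both genes had the same other TF or both had none. For 53 of the 150 genes (35.3%) the identifier before or after it was also a shared target of DOF17 and DOF30. The share was 47.5% among the shared targets not chosen and 8.04% among 18049 other target genes. The 36 such neighbours outside the set had a median of 5.5 other TFs, with a range of 1 to 30. Positions on the genome were not used here, and whether such genes were scored from the same peaks was not tested. The counts, shares and medians given here include both genes of each pair with consecutive identifiers, which may not be independent of each other.

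None of the 8 C4 photosynthesis genes named in the study's tables was in the set. The set holds 150 of the 20067 target genes, so an absence among 8 genes says little. Of the C4 genes, CA1 (carbonic anhydrase), PPDK (pyruvate phosphate dikinase) and RbCS1 (a small subunit of Rubisco) were shared targets of the pair. The pair shared 1922 of all 20067 target genes, and 8 genes are too few to compare with this share. CA1 had 94 other TFs and PPDK 32. RbCS1 came closest to the set with 2 other TFs, COL2 and HAG7, and its p was 0.00182 for DOF17 and 0.0366 for DOF30.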

How the data were processed

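The table of TIP results for 104 TFs was the file analysed. Per the paper and the submitters' processing notes, the authors aligned reads to B73 RefGen_v4 with Bowtie2 2.2.5, filtered them with SAMtools 1.3 at a mapping quality of 10, called peaks with SPP against input, removed blacklisted regions and peaks in the gene of the TF itself, and kept peaks at an irreproducible discovery rate of 1%. The authors deposited p-values from TIP (version not given in the sources used here), with 1 value for a TF and a gene over the replicates of the TF. They state a false discovery rate of 5% as the limit for a target. The listed p-values reach 0.05, and whether they are adjusted was not established. Samples were grouped by the TF in their title, and TF names and families were taken from the study's clone table. DOF17 and DOF30 targets were intersected, genes of profiled TFs were left out, and the 150 genes with the fewest other TFs were kept, ties being ordered by the product of the 2 p-values. "Sparsely listed" means at most 1 TF besides the pair compared. The code that makes the choice was run on simulated data with planted genes. There the other genes were listed at random, so this checks the code and says nothing about the 150 genes. Counts and medians are descriptions, and no test was made, because the listings chose the genes. The members and lists were chosen with earlier results of these data known. Genes named are the 5 with the lowest product of p-values, the 2 with the largest ratio of the p-values in each direction, the 2 lowest products among genes with no other TF, the 2 on either side of the cut, any member listed by all 4 DOF TFs (no member was), and C4 genes of the study's tables. TFs named by rule are the DOF TFs, the 10 with the most members, the 3 longest lists without a member and those of the 3 leading pairs. The other TFs and pairs named, and the look at consecutive identifiers, were chosen after their values were seen. Python 3.11.15, numpy 2.4.6, pandas 2.3.3, scipy 1.17.1 and matplotlib 3.10.9 were used.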

Additional observations from a re-analysis of the deposited data

How the results depend on the processing

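No paired analysis was possible because the table pools the replicates of each TF, and for the same reason no replicate could be left out. The settings were another number of genes (100 or 200), ties ordered by the larger p, a p limit of 0.01 or 0.001 on all listings with genes chosen anew, the same limits on the other TFs alone with the genes kept, DOF21 and DOF22 not counted among the other TFs, TFs weighted by the inverse of their number of targets, and profiled TF genes kept. Taking all 188 shared targets with at most 1 other TF was chosen after seeing the data. The cause of each change was not tested unless the setting itself fixes it. DOF17 with DOF30 stayed the first of all pairs in sparsely listed shared genes with all listings at 0.01 and at 0.001 and with profiled TF genes kept. The other settings either do not enter this count or, where only the other TFs were limited, favour the pair by construction, so they say nothing of its place. The number of such genes was 90 with all listings at 0.001, and 458 and 817 with the limits of 0.01 and 0.001 on the other TFs, which can only raise it. Genes with no other TF were 93 and 129 under those last limits, and genes listed by DOF22 were 42 and 13, against 36 with 100 genes. DOF21 listed 3 genes with all listings at 0.001 and 1 when the DOF TFs were not counted. The share of DOF22 among genes with 1 other TF was 60.6% and 55.1% with all listings at 0.01 and 0.001, 61.9% with the other TFs at 0.001, 97.8% when the DOF TFs were not counted (by construction) and 86.6% with weighted TFs. The TFs that listed a gene of the set numbered 8 with 100 genes, 33 with 200, 67 with all listings at 0.001, 11 and 6 with the other TFs at 0.01 and 0.001, 8 without counting the DOF TFs, 9 with weights and 29 with all 188 genes. The median p for DOF17 was 0.00502 with 100 genes, 0.0013 and 4.81e-05 with all listings at 0.01 and 0.001, 0.00937 with weights and 0.0102 with 188 genes, and for DOF30 it was 0.00200, 6.47e-05 and 0.0136 at 0.01, at 0.001 and with 188 genes. DOF30 listed 62% and 52.1% of the DOF17 targets at those limits. Of the 150 genes, 60 and 14 were chosen again with all listings at 0.01 and 0.001, so which genes are in the set depends on the p limit, and 139 with ties by the larger p. The other values moved by less than 1.5 times or within their counting interval, some of them because the setting does not enter them. The counting intervals take genes as independent, which they are not. They served only as a limit for which changes to print and do not measure the spread between replicates.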
